A study of Rattus norvegicus with 4 samples.

Results

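The splicing factor and hnRNP genes of S16 cells, an immortalized rat Schwann cell line, were taken as every listed gene whose symbol begins with Srsf, Hnrnp, Snrp, Sf3a or Sf3b, which gave 53 of the 30708 genes in the RNA-Seq tables. The families held 11 Srsf, 18 Hnrnp, 16 Snrp, 3 Sf3a and 5 Sf3b genes. RNA-Seq was performed on 2 unmodified S16 populations grown in the same medium, passage 9 and passage 39, and 2 libraries labelled as technical replicates were made from each; one population was the parent of clonal lines that lack an enhancer named rSOX-4, and those lines were not analysed here. The labels call the cells myelinating Schwann cells, and all 10 Schwann cell marker genes examined were at or above 1 RPKM (reads per kilobase of exon and per 1000000 mapped reads), with means from 8.40 to 2247 RPKM. Of the markers of other cells, 4 of 7 fibroblast, 1 of 8 neuronal, 2 of 6 macrophage and 2 of 6 melanocyte genes reached that level, and the fibroblast sum, 3446 to 3950 RPKM, came almost wholly from Col1a1 at 3588 RPKM.

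An intron is removed by the spliceosome, which is built from small nuclear ribonucleoprotein particles (snRNPs). The Snrp genes encode proteins of these particles, including the Sm proteins that form a ring around the small nuclear RNA, and the Sf3a and Sf3b genes encode the subunits through which the U2 snRNP holds the branch site. Srsf genes encode serine- and arginine-rich SR proteins that bind exons and mostly favour their inclusion, while hnRNP proteins coat nascent transcripts and often oppose it. In Schwann cells alternative exons occur in genes such as Mag and Mbp, and each of these protein classes is known to act on alternative exons.

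The labels did not match how the libraries resembled each other. The depth recovered from the RPKM steps was 41382234, 35092464, 34246093 and 41083270 reads in passage 9 libraries 1 and 2 and passage 39 libraries 1 and 2. These totals are larger than the read number per cell line that the methods state, a gap not resolved here, and the chi-squares and intervals of counting error rest on the recovered reads. When reads were compared gene by gene over 13585 genes, the labelled technical replicates of passage 9 had a mean chi-square of 64.9 per gene, and over 13531 genes those of passage 39 had 62.3, where sampling noise gives about 1. Libraries with the same number but different passages gave 1.12 (library 1) and 1.36 (library 2). The 49 splicing factor genes with enough reads behaved alike, with 40.2 and 37.0 between labelled replicates and 1.68 and 2.09 between passages at the same number. Whether passage, library number or the labels themselves set the libraries apart cannot be told apart from these files. Each difference is therefore given both between passages, as labelled, and between library numbers within each passage, and no test was run because a passage is 1 population. Errors are the SD of the 2 passage means (n = 2). Each mean averages both library numbers, so this SD leaves out the difference between numbers, which was larger for most of these genes. For Snrpb2, for example, it was 0.215 RPKM, while single libraries ran from 50.8 to 64.1 RPKM. Intervals for reads are exact 95% intervals of counting error only, as the reads carry no molecular identifiers.

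Most splicing factor genes were abundant. The libraries are bulk RNA, in which fewer expressing cells and less RNA per cell cannot be told apart. At a mean of at least 1 RPKM, 47 of the 53 were detected, where 35.9% of all listed genes were, and the median of those detected was 55.2 RPKM against 11.1 RPKM for all detected genes. Means reached 10 RPKM or more for 43 and 100 RPKM or more for 7, and 18 ranked within the first 1000 genes. Summed, they came to 2850 (library 1) and 3190 RPKM (library 2) at passage 9 and to 2873 and 3194 RPKM at passage 39, or 0.902% to 0.917% of each library's RPKM. Sums were thus higher in both second libraries, while their share of the library varied little. The 6 genes under 1 RPKM were Snrpc, Snrpep2, Hnrnpc, Hnrnpab, Snrpgl2 and Srsf12. Snrpep2 and Snrpgl2, symbols of Snrpe- and Snrpg-like copies, averaged 0.424 and 0.0183 RPKM, and only Srsf12 was listed at 0 in every library.

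**Figure D1:**
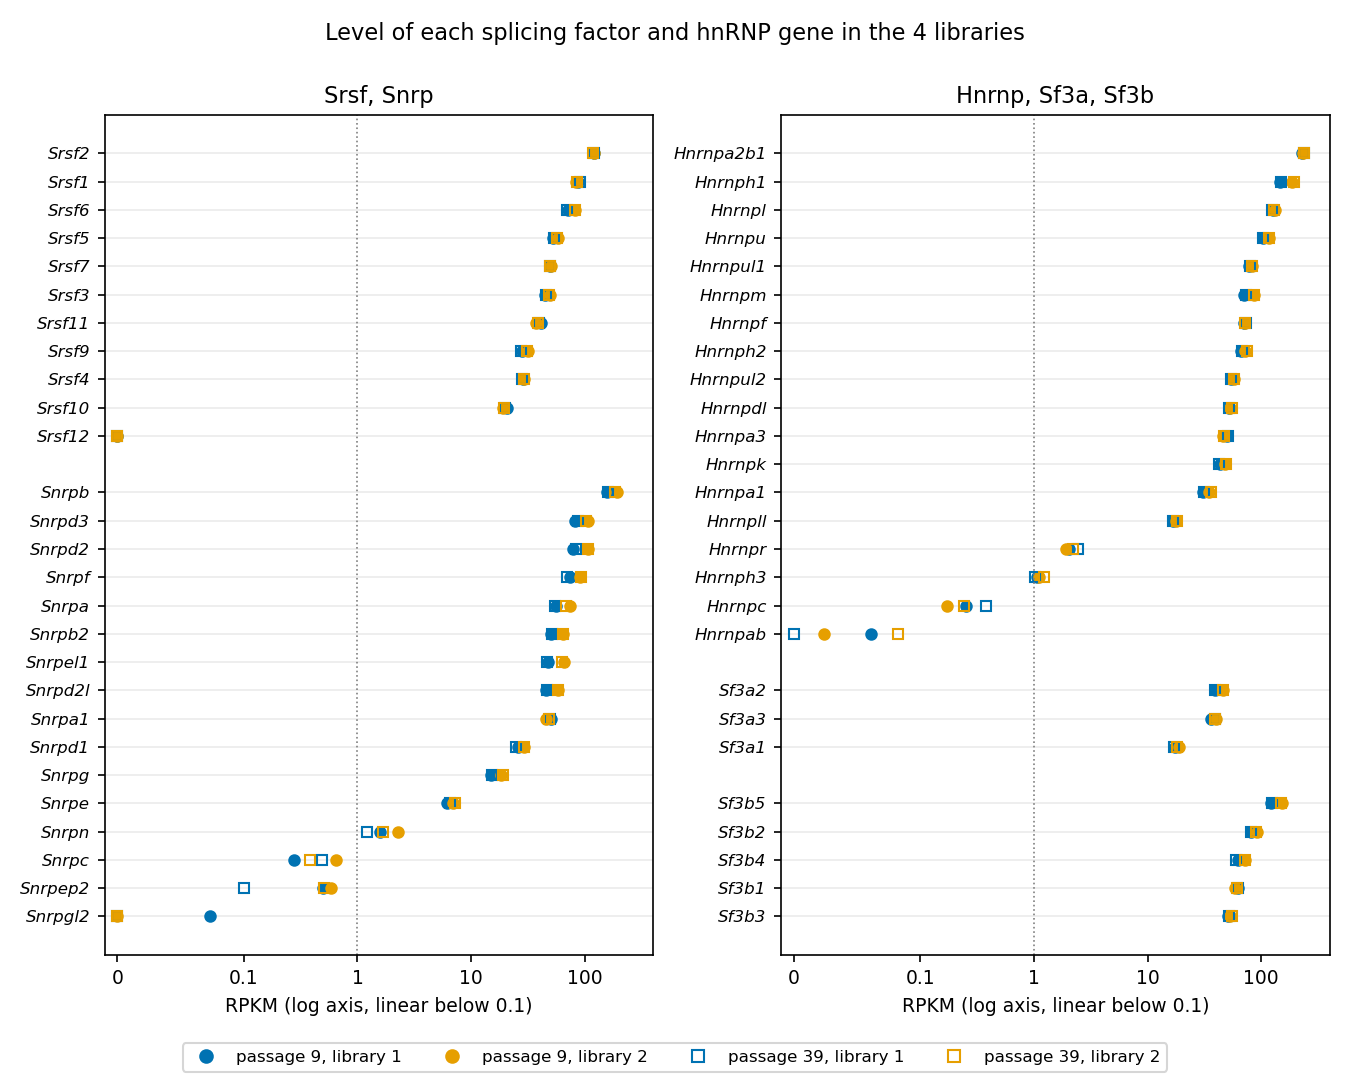
RPKM of each of the 53 genes (log axis, linear below 0.1) in the 4 libraries, with genes ordered by mean level within a family. Circles are passage 9, open squares passage 39, blue library 1 and orange library 2, and the dotted line marks 1 RPKM; 47 genes lie at or to the right of it on average.

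Among the snRNP genes, the highest was Snrpb, which encodes the SmB protein of the ring. Passage 9 libraries 1 and 2 gave 157.6 and 190.9 RPKM, and the corresponding passage 39 libraries 160.3 and 185.1 RPKM (mean 173.5 ± 1.13, SD, n = 2). Both second libraries were above both first, and the passages overlapped. The other Sm genes were Snrpd3 at 94.1 ± 0.737 RPKM, Snrpd2 at 94.0 ± 0.903, Snrpf at 81.8 ± 1.02, Snrpd1 at 27.3 ± 0.513, Snrpg at 16.9 ± 0.361 and Snrpe at 6.71 ± 0.214 RPKM. As listed, genes whose products sit in the ring in equal number spanned a wide range of RPKM. The lowest levels, of Snrpg and Snrpe, are uncertain because both genes have copies, described below. Snrpn, a paralog of Snrpb known as an imprinted gene of neurons, was at 1.57, 2.29, 1.21 and 1.67 RPKM in the same order of libraries, from 94, 116, 60 and 99 reads. The 95% interval of the first of these was 1.27 to 1.92 RPKM. Snrpb was 83.5 to 132 times higher than Snrpn in each library. Snurf, which overlaps Snrpn and shares its transcript, was listed separately at 73.2 ± 1.59 RPKM; it was looked up after the Snrpn values were seen, and how reads over the shared exons were assigned was not tested.

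Among the particle-specific Snrp genes only Snrpc was listed low, and its level is uncertain because of copies, described below. Snrpa, the A protein of the U1 particle, averaged 63.2 ± 2.46 RPKM, whereas Snrpc, which encodes the C protein of U1 that takes part in 5′ splice site recognition, was at 0.276, 0.652, 0.488 and 0.385 RPKM from only 13 to 26 reads. The U2 proteins Snrpb2 and Snrpa1 averaged 57.6 ± 0.215 and 48.4 ± 0.782 RPKM.

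Some of these levels rest on genes with near-identical copies, among which uniquely aligned reads are divided or lost. In the RefSeq annotation of the GRCr8 assembly, which is newer than the rn5 assembly behind the values, 51 of the 53 symbols were found as such and 2 as older names, and 25 genes had numbered pseudogenes, 138 in all. Hnrnpa1 had 51 of them, Snrpc and Srsf3 10 each, Snrpg 8, Hnrnpk and Srsf7 7 each and Hnrnpc 6. The symbols Snrpel1, Snrpd2l and Snrpgl2 are called pseudogenes there. Snrpel1 was nevertheless at 55.6 ± 1.65 RPKM and exceeded Snrpe 7.03- to 9.45-fold in every library. Snrpd2l was at 51.7 ± 0.338 RPKM, with Snrpd2 1.74- to 1.87-fold above it. The levels of all these genes are uncertain, and the share of copies in them was not tested.

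The listed Sf3a and Sf3b genes were all detected. In the SF3A complex, Sf3a2 averaged 42.5 ± 0.260, Sf3a3 38.7 ± 0.629 and Sf3a1 17.8 ± 0.335 RPKM. Among the listed Sf3b genes, that of the smallest subunit, Sf3b5, was highest at 122.8, 150.8, 123.3 and 150.2 RPKM. Again both second libraries were above both first. Sf3b2 (86.6 ± 0.476), Sf3b4 (66.9 ± 1.10), Sf3b1 (61.1 ± 0.463) and Sf3b3 (52.9 ± 1.12 RPKM) followed. Sf3b1, the subunit that clamps the branch-site helix, read 62.8, 58.7, 62.2 and 60.6 RPKM, so its second libraries were the lower ones.

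The SR protein genes lay between 19.8 and 120 RPKM, apart from Srsf12. Srsf2 was highest at 119.6, 120.4, 120.2 and 118.9 RPKM and hardly varied among libraries. Srsf1, the SR protein also known as SF2/ASF, was at 87.8, 83.0, 89.8 and 85.8 RPKM, with both first libraries above both second. Srsf10, a splicing repressor when dephosphorylated, was the lowest detected at 20.5, 19.1, 20.01 and 19.4 RPKM. The others were Srsf6 at 76.0 ± 0.578, Srsf5 at 55.2 ± 0.199, Srsf11 at 39.4 ± 0.0975, Srsf9 at 29.6 ± 0.433 and Srsf4 at 28.7 ± 0.209 RPKM. The paralogs Srsf3 (47.04 ± 0.109 RPKM) and Srsf7 (49.6 ± 0.375 RPKM) were close to level, with a ratio of 0.948 ± 0.00514.

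The hnRNP genes ranged from 0.0420 to 232 RPKM. Hnrnpa2b1, which encodes an RNA-trafficking and splicing repressor, had the highest level of all 53 genes at 225.9, 230.8, 236.0 and 235.3 RPKM (mean 232 ± 5.14). Hnrnph1, a binder of G-rich elements, followed at 147.0, 186.3, 147.6 and 192.3 RPKM and Hnrnpl, a binder of CA repeats, at 127.1, 130.9, 124.6 and 130.4 RPKM. Their paralogs were lower. Hnrnph1 was 2.40 ± 0.0159 times Hnrnph2, and this ratio was larger in both second libraries (2.59 and 2.57) than in the first (2.22 and 2.20). Hnrnpl was 7.37 ± 0.0874 times Hnrnpll. At the low end, Hnrnpc, the core packaging protein of nuclear RNA, was at 0.251, 0.172, 0.382 and 0.245 RPKM. Hnrnpab was at 0.0614, 0.0241, 0 and 0.0824 RPKM from at most 4 reads. Whether low expression or lost reads gave these low values was not tested. Between these ends were Hnrnpu at 110.5 ± 0.835, Hnrnpul1 at 80.9 ± 0.171, Hnrnpm at 79.4 ± 1.46, Hnrnpf at 71.8 ± 0.571, Hnrnph2 at 70.0 ± 1.38, Hnrnpul2 at 55.8 ± 0.0887 and Hnrnpdl at 53.4 ± 0.690 RPKM. Lower still were Hnrnpa3 at 48.4 ± 1.05, Hnrnpk at 45.8 ± 0.0402, Hnrnpa1 at 33.1 ± 0.604, Hnrnpll at 17.4 ± 0.0743, Hnrnpr at 2.15 ± 0.243 and Hnrnph3 at 1.11 ± 0.0274 RPKM. Hnrnpa1, which encodes the best-known antagonist of SR proteins, read below Srsf1 in each library, by 2.39- to 2.88-fold. This ratio is uncertain, since Hnrnpa1 had 51 numbered pseudogenes and Srsf1 none, and the loss of reads to copies was not tested. The gene of the AUF1 protein was listed under its older symbol Hnrpd, which the family prefix misses, at 78.8 ± 0.552 RPKM.

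The comparison between library numbers asked how far the labelled technical replicates lay apart for these genes. Differences are in log2(RPKM + 1), second library minus first, averaged over the passages, over the 47 genes at 1 RPKM or more. Their median was 0.13, against 0.10 for all 11025 detected genes, and the median of all genes moved to 0.027 under median-ratio scaling and to -0.026 when libraries were set to a common sum, so the differences are read relative to it. None of the 47 genes reached 1.5-fold, where 2.89% of all genes were higher and 3.17% lower in second libraries by that much, and so none reached 2-fold, where 0.372% and 0.726% did. At 1.2-fold, a threshold added after the values were seen, 11 were higher (23.4%) and none lower, against 25.9% and 13.1% of all genes. The share higher was thus close to the background. Those 11 were 9 Snrp genes, Hnrnph1 and Sf3b5. Without the copy-like symbols Snrpd2l, Snrpel1, Snrpep2 and Snrpgl2, 7 of 11 detected Snrp genes were higher (63.6%). Both second libraries lay above both first for 37 genes (78.7%, background 57.2%) and below for 6 (12.8%, background 30.5%).

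Family medians followed an order, described here with no test. The median was 0.31 for the 13 Snrp genes (0.30 without copy-like symbols), 0.16 for Sf3b, 0.10 for Sf3a, 0.092 for Hnrnp and 0.038 for Srsf. Relative to the median of all genes these were 0.21, 0.055, 0.0010, -0.012 and -0.066. Of the Snrp genes 12 lay above the median of all genes, whereas 4 of 10 Srsf genes did. The Snrp median was 0.17 at a common sum and 0.22 under median-ratio scaling, while that of Srsf turned to -0.11 and -0.050, and those of Hnrnp and Sf3a turned to -0.045 and -0.036 at a common sum only.

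The Snrp genes with the largest differences were Snrpel1 at 0.45, Snrpd2 at 0.39, Snrpa at 0.37 and Snrpf at 0.35. Snrpd2 was at 79.1 and 107.5 RPKM in passage 9 and 83.3 and 105.9 RPKM in passage 39, 1.31-fold higher in second libraries. Snrpa was at 55.5 and 74.4, then 54.7 and 68.3 RPKM, and Snrpf was at 74.1 and 91.1, then 69.8 and 92.4 RPKM. In all these genes the second library was the higher in each passage. Snrpel1 was at 47.4 and 66.0, then 46.2 and 62.6 RPKM, subject to the uncertainty over copies given above. Outside the family, Hnrnph1 differed by 0.36. Snrpa1 was the exception among Snrp genes, at 50.3 and 45.4, then 49.6 and 48.4 RPKM, a difference of -0.090. The other genes lowest in second libraries were Hnrnpa3, a paralog of Hnrnpa2b1, at -0.11, Srsf11 at -0.091, and Srsf1 and Hnrnpr at -0.073 each. None of these lower genes differed by as much as 1.2-fold.

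Windows of 250 bases before the RefSeq start are shown for Snrpd2, Snrpa and Snrpf, higher in second libraries, and for Snrpa1, which was lower. Relative to genes of similar length, described below, the differences were 0.11, 0.14, 0.074 and -0.33 in the same order. Any bearing of these sequences on the difference by number was not tested. They are printed from GRCr8, gene strand, 5′ to 3′, with CCAAT boxes, CCAAT or ATTGG on the strand printed, in capitals. Positions are chr1:87926159-87926408, plus strand, for Snrpd2, chr1:91618043-91618292, minus strand, for Snrpa, chr7:30024163-30024412, minus strand, for Snrpf and chr1:129051800-129052049, plus strand, for Snrpa1.
Snrpd2: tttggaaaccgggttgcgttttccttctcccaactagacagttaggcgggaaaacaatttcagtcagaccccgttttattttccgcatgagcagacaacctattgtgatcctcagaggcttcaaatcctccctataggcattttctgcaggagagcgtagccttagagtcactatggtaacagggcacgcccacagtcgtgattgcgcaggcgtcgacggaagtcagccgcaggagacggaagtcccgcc
Snrpa: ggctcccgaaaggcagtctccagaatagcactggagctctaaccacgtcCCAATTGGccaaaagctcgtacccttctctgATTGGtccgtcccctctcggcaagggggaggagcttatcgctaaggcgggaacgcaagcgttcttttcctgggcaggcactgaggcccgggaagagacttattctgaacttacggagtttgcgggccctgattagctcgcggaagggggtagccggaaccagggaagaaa
Snrpf: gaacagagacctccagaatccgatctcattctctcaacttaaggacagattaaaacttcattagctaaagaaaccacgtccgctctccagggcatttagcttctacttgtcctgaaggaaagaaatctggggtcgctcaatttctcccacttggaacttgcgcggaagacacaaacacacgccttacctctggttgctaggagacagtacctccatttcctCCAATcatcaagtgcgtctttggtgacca
Snrpa1: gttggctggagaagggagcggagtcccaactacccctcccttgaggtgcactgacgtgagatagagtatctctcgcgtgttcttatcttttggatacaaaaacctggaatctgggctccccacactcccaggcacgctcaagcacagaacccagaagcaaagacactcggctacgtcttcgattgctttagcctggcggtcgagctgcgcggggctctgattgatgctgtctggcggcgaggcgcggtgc
Snrpa held 3 CCAAT boxes, the first 2 of which overlap, Snrpf held 1, and Snrpd2 and Snrpa1 held none. None of the 4 windows held the TATA box TATAAA, the GC box GGGCGG or the ETS site CCGGAAG on either strand. RefSeq promoters were found for 47 of the 53 genes, Snrpel1, Snrpd2l, Snrpep2, Snrpgl2, Hnrnpll and Sf3b2 having none in the table. In these windows 51.1% held a CCAAT box, against 34.3% of all 27457 promoters of the same length and 36.3% of those of detected genes. A GC box was found in 2 of 12 Snrp promoters (16.7%), in 9 of 11 Srsf promoters (81.8%), in 32.4% of all and in 62% of those of detected genes. An ETS site was found in 5 of 12 Snrp (41.7%), 4 of 11 Srsf (36.4%) and 1 of 17 Hnrnp (5.88%) promoters, in 7.74% of all and in 16.8% of those of detected genes. CCAAT boxes were most frequent in the Hnrnp promoters, 13 of 17 (76.5%). These are matches of letters, with no measurement of binding.

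**Figure D2:**
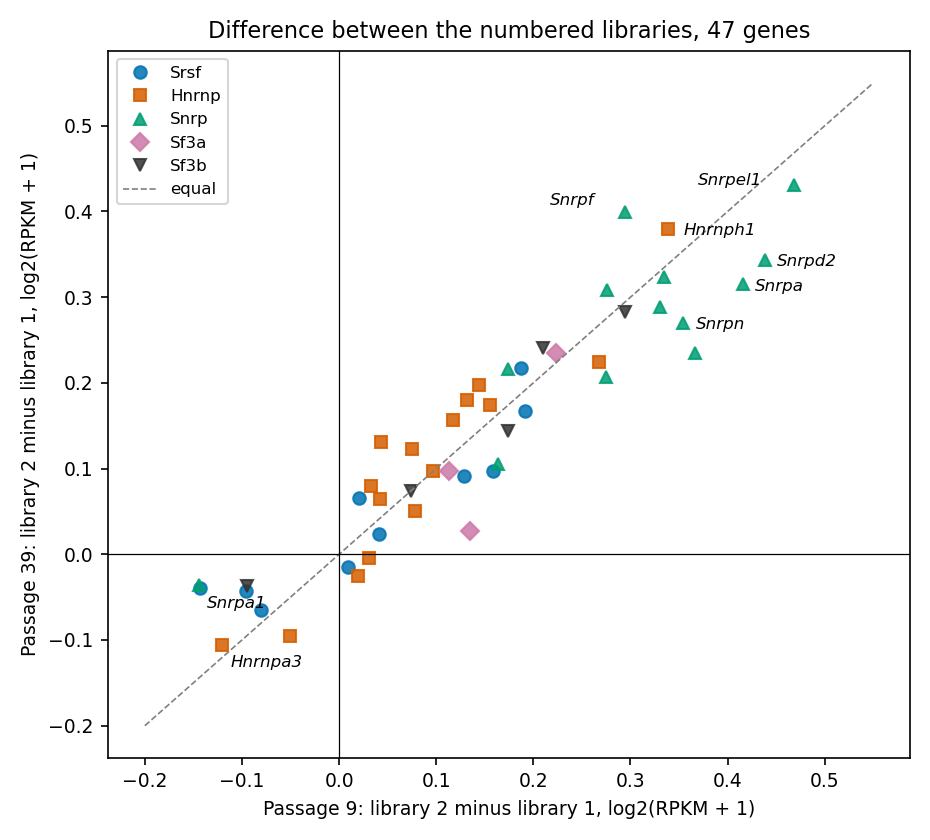
Library 2 minus library 1 in log2(RPKM + 1), passage 9 on the x axis and passage 39 on the y axis, for the 47 detected genes marked by family, with the dashed line at equality. Snrp genes take most of the upper right. The sign is the same on both axes for 44 genes, as it is for 10079 of all 11025 detected genes.

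The difference by number was alike in both passages. For 44 of the 47 genes it had the same sign in passage 9 and in passage 39, as it had for 10079 of all 11025 detected genes. The median of the 47 was 0.13 in each passage. With counting error alone, the 95% interval of the ratio between second and first libraries lay above 1 in both passages for 30 genes. It lay below 1 in both for 3, and for none did it lie on opposite sides. These counts were made for the splicing factor genes only, with no share over all genes, and intervals narrow as reads increase. The median difference of all detected genes was itself 0.10, so the counts do not set these genes apart. For Hnrnph1 the interval was 1.235 to 1.299 in passage 9 and 1.27 to 1.336 in passage 39. The values were thus repeated across passages, although equally numbered libraries may not be independent.

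Gene length moved with the difference. Exonic lengths recovered from the RPKM steps were shortest in the Snrp family (median 684 bp, from 215 to 1445 bp), compared with 2896 bp for Srsf, 3432 bp for Hnrnp and 2622 bp for all detected genes. Genes under 1000 bp differed by a median of 0.30 (9 splicing factor genes) and 0.27 (all 1278 such genes). As a description, Spearman's rho between length and difference was -0.62 over the 47 genes and -0.42 over 11024 detected genes with a length, genes of one library set being no independent points. Relative to the median of genes of similar length, in 20 bins, the Snrp median was 0.047, that of Sf3a 0.042, Hnrnp 0.038, Sf3b 0.037 and Srsf -0.083. On this scale none of the 11 genes above remained 1.2-fold higher, Hnrnph1 coming nearest at 0.20. Hnrnpu, the scaffold attachment factor, was not among the 11 (103.9, 115.9, 104.3 and 117.8 RPKM, 1.12-fold higher in second libraries). Yet Hnrnpu lay 0.27 above genes of its length (7795 bp), the only gene 1.2-fold higher on this scale. Snrpa1 lay 0.33 below genes of its length, past 1.2-fold in the other direction. The part of length in the differences was not tested.

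**Figure D3:**
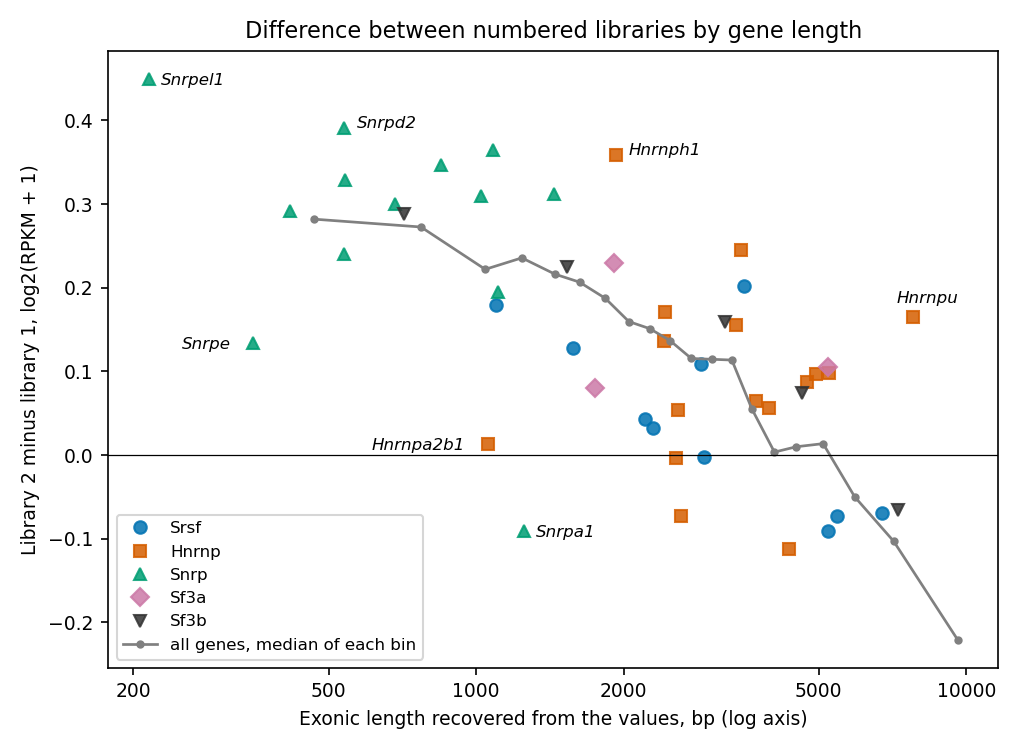
Library 2 minus library 1 in log2(RPKM + 1), averaged over the passages, against recovered exonic length in bp (log axis) for the 47 detected genes, marked by family. The grey line joins the medians of 20 equal bins of all detected genes and declines with length; Snrp genes lie at the short end near it, with Snrpa1 0.33 below genes of its length.

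Between passages the splicing factor genes lay much closer. This comparison set the 2 populations of the design side by side. On the log2(RPKM + 1) scale no gene of the 47 differed by 1.2-, 1.5- or 2-fold in either direction, where 0.336%, 0.0272% and 0.00907% of all detected genes did. The pseudocount of 1 decided this for Snrpn, whose passage means of 1.93 and 1.44 RPKM are 1.34-fold apart without it, and which with it differed 1.23-fold among second libraries. The median difference, passage 39 minus passage 9, was 0.0074, and was 0.0055 among first libraries and -0.0015 among second libraries. In 42 genes the difference by number exceeded the passage difference at either number. This count has no share over all genes beside it and does not set these genes apart. The median size of the differences of the 47 genes was 0.14 by number and 0.027 by passage. Over all detected genes it was 0.21 and 0.038, so number differences were the larger there too. Only Hnrnpa2b1 and Hnrnpr had both passage 39 libraries above both of passage 9, 4.26% of 47 where 3.1% of all genes did, and none had both below, where 3.11% did.

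The 3 genes with the largest passage differences were Snrpn, Hnrnpr and Snrpa. Snrpn differed by -0.26, with -0.22 among first and -0.30 among second libraries, but its lowest and highest values by passage overlapped, as given above. Hnrnpr, a close relative of the RNA-binding protein Syncrip, was at 2.03 and 1.93 RPKM in passage 9 and 2.43 and 2.21 RPKM in passage 39, a difference of 0.16 from 177 to 238 reads a library. Snrpa differed by -0.072. For Hnrnpa2b1 the difference was 0.045, made up of 0.063 among first and 0.028 among second libraries. The 95% intervals of Hnrnpr, 1.77 to 2.32 RPKM in the first library of passage 9 and 2.12 to 2.78 RPKM in that of passage 39, overlapped.

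**Figure D4:**
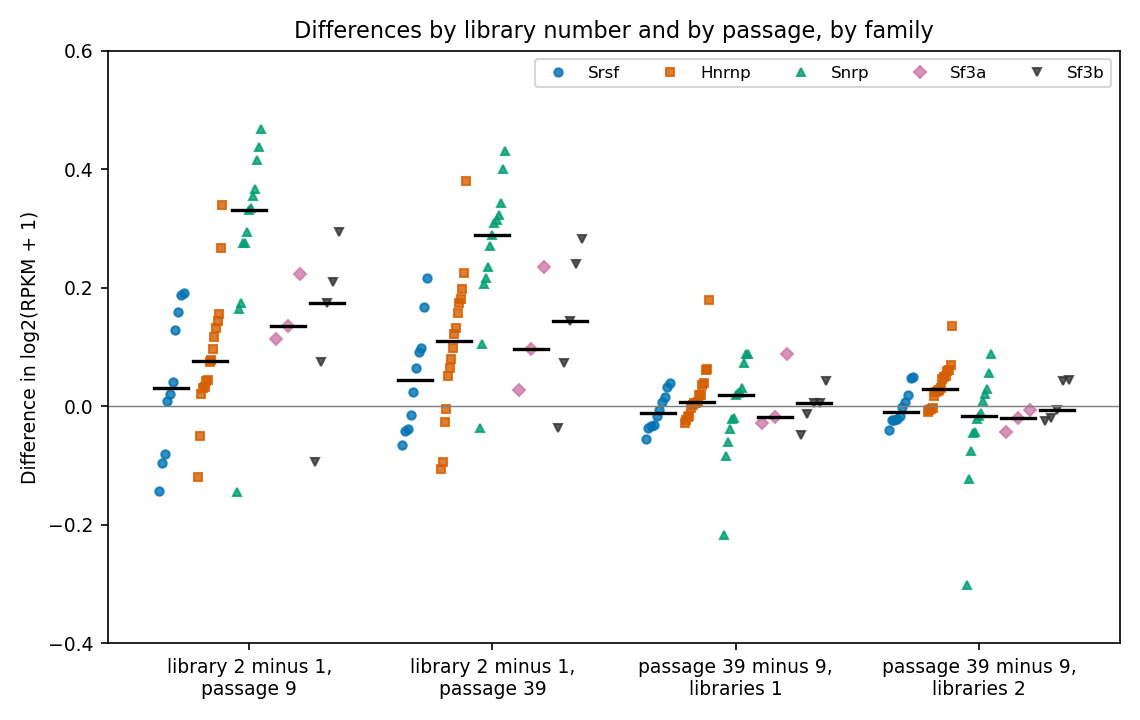
Differences in log2(RPKM + 1) for the 47 detected genes by family, between library numbers within each passage (left) and between passages within each library number (right), with black bars at family medians. Number differences reach 0.47 while most passage differences stay near 0; the lowest points on the right are Snrpn at -0.22 and -0.30.

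Other genes of the splicing pathway were examined in 11 lists with 169 symbols, of which 167 were listed and 149 detected. Their median difference by number was 0.11, close to that of all genes, and 27 were higher (18.1%) and 7 lower (4.70%) by 1.2-fold, both below the 25.9% and 13.1% of all detected genes. In the Prp19 complex, which activates the assembled spliceosome, all 17 genes had both second libraries above both first (57.2% of all genes did), 10 of them by 1.2-fold (58.8%, against 25.9%). Their median was 0.27 and came to 0.12 once the bin medians for length were subtracted. The 7 U-particle genes named Snrnp had a median of 0.20, with Snrnp25 at 14.0, 19.7, 14.5 and 19.98 RPKM the most different. The kinases that phosphorylate SR proteins had a median of -0.072, and the SR-like proteins had 3 of 14 genes lower by 1.2-fold (21.4%, against 13.1% of all genes), among them Son at 36.4, 24.9, 35.8 and 25.3 RPKM. Those 3 were long, Son at 12645 bp, Srek1 at 10820 bp and Srrm2 at 9078 bp, and the longest bin of all genes had a median of -0.22. Of 12 detected genes of Sm protein assembly 2 were 1.2-fold higher (16.7%, below the 25.9% of all genes), Smn1 (31.2, 40.7, 30.8 and 41.1 RPKM) and Prmt5, which methylates Sm proteins (35.9, 49.8, 36.1 and 49.4 RPKM).

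In these lists 3 genes passed 1.5-fold in both passages, 1 higher (0.671% of 149) and 2 lower (1.34%), where 2.89% and 3.17% of all genes did on average over the passages. Ctnnbl1, of the Prp19 complex, was higher in second libraries, at 25.8, 42.2, 26.8 and 42.1 RPKM. Mbnl1 and Mbnl3, which encode muscleblind regulators of alternative exons, were lower, Mbnl1 at 10.9, 6.90, 11.0 and 6.81 RPKM and Mbnl3 at 8.52, 2.45, 8.60 and 2.54 RPKM. The differences were 0.66, -0.61 and -1.45, compared with 0.45 for Snrpel1, the largest difference among the 47 genes.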

How the data were processed

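Per the labels, poly(A) RNA of S16 flasks was sequenced on TruSeq libraries; the study aligned 50-bp single-end reads to rn5 with STAR and counted them with HTSeq. The authors deposited 1 RPKM value per gene and library, with 30708 genes in each of 4 files, and gene models are called RefSeq there but Ensembl in the methods. Uniquely aligned reads were counted without strand, so genes with copies or overlaps are uncertain. Gene reads and exonic lengths were recovered as the smallest whole numbers that fit the RPKM steps in all libraries. They were found for 18114 genes above 0 in at least 2 libraries, to within 1e-05 of a whole read. A factor shared by a gene's reads and length would thus be missed. Total reads were instead the largest of the multiples tried that kept most gene lengths whole. The recovery was tested on simulated data. Levels are RPKM; differences are in log2(RPKM + 1) over genes with a mean of 1 RPKM or more, which understates changes of low genes. No test was run: each passage is 1 population. Calculations used scipy 1.17.1 and pandas 2.3.3 under Python 3.11.15. Alternatives were other scalings, pseudocounts, minimum levels, a correction for length and leaving out each library. Genes shown with all libraries were, in each family, the 2 highest and 2 lowest, the 5 highest and 5 lowest differences by number, the 3 largest by passage and paralog pairs. The genes and lists were chosen with earlier results of these data known.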

Additional observations from a re-analysis of the deposited data

How the results depend on the processing

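All results are values without a test, and single libraries or scalings moved many of them by more than the very small spread between passages. No paired analysis was possible because no result comes from a test; differences within each library number and within each passage are given as values. Scaling set the sign of the difference by number for Srsf, Hnrnp and Sf3a. At a common sum of 1000000 its median was 0.0069 for all 47 genes, -0.11 for Srsf, -0.045 for Hnrnp, 0.17 for Snrp, -0.036 for Sf3a and 0.014 for Sf3b. In the same order it was 0.048, -0.050, 0.011, 0.22, 0.020 and 0.070 under median-ratio scaling and 0.028, -0.083, 0.038, 0.047, 0.042 and 0.037 relative to genes of similar length. Over all families it was 0.15 with a pseudocount of 0.1 RPKM and 0.13 with no minimum level or, chosen after seeing the data, without the 4 copy-like symbols. Leaving out each library gave 0.12 to 0.15 for all and 0.027 to 0.049 for Srsf. In place of 11 genes, 2 were 1.2-fold higher at a common sum, 4 under median-ratio scaling and 1 relative to length. The share of all genes past 1.2-fold under these settings is not given. The median of all genes moved too, from 0.10 to -0.026 at a common sum and to 0.027 under median-ratio scaling. No splicing factor gene reached 1.5-fold by number or passage under any alternative.

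The median passage difference at a common sum was 0.012 for all, -0.0017 for Srsf and -0.0080 for Sf3a. Under median-ratio scaling it was -0.0030 for Srsf and -0.0092 for Sf3a, and with no minimum level it was 0.00040 for all. Leaving out 1 library unbalances the numbers, and the medians then ranged from -0.063 to 0.071 for all, from -0.034 to 0.013 for Srsf, from -0.045 to 0.080 for Hnrnp, from -0.16 to 0.14 for Snrp, from -0.093 to 0.099 for Sf3a and from -0.097 to 0.079 for Sf3b. Passage differences within 1 number, chosen after seeing the data, were -0.011 for Srsf, 0.0066 for Hnrnp and -0.018 for Sf3a among first libraries, and -0.0015 for all, -0.0092 for Srsf, -0.017 for Snrp and -0.020 for Sf3a among second libraries. The summed level was 9092 at a common sum, 3017 RPKM under median-ratio scaling, 2919 RPKM without the copy-like symbols and 2942 to 3112 RPKM with a library left out. Depth limits the genes under 1 RPKM, which rest on few reads.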
